A study of Homo sapiens with 4 samples.

Results

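Oxidative phosphorylation mRNAs come from both genomes of the cell, and the question was how the mitochondrially encoded and the nuclear ones compare in m6A-seq. Members were the genes whose symbols begin with NDUF, UQCR, ATP5 or COX and a digit, together with SDHA to SDHD, CYC1 and the MT-ND, MT-CO, MT-CYB and MT-ATP genes. They numbered 109 of the 14911 genes listed, with 245 of the 28413 transcripts. Of these, 7 were mitochondrially encoded and 102 nuclear.

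Poly(A) RNA of HEK293T cells, an established human embryonic kidney line with SV40 large T, was fragmented and sequenced before (input) and after (m6A-IP) pull-down with an antibody against N6-methyladenosine. Both populations had been exposed to X-rays, at 10 Gy by the methods, and carried a lentiviral pLKO.1 shRNA under puromycin selection, either a control (shCTL) or one against the m6A demethylase ALKBH5 (shALKBH5, here shA5). Neither the time from exposure to harvest nor which of the 2 ALKBH5 shRNAs was used is stated for these 4 libraries. Each group had 1 library, so no value below has a replicate check and no p-value is given. Depth was 2237819 counts for the shCTL input, 3944402 for the shCTL m6A-IP, 1311390 for the shA5 input and 3148119 for the shA5 m6A-IP.

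The respiratory chain passes electrons through complexes I to IV of the inner mitochondrial membrane and pumps protons, and complex V, the ATP synthase, uses the proton gradient to make ATP. Mitochondrial DNA encodes core subunits of complexes I, III, IV and V, while complex II, most other subunits and all assembly factors come from nuclear genes. Nuclear pre-mRNAs meet the m6A methyltransferase in the nucleus, whereas mitochondrial mRNAs are transcribed, cleaved from long precursors and polyadenylated inside the organelle.

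The knockdown target and the cell identity were checked first. ALKBH5 had 486 counts in the input and 1432 in the m6A-IP of shCTL, and 145 and 589 in those of shA5. Both shA5 libraries held less ALKBH5 RNA, where log2 changes were -0.97 for input (95% interval -1.25 to -0.70) and -0.96 for m6A-IP (-1.10 to -0.82). Of 9 genes chosen as HEK293T background markers, all 9 were listed, at a summed level of 205 CPM (counts scaled to the library total) in input and 263 in m6A-IP of shCTL, then 146 and 212 in shA5. Below, sets of 4 values keep this order, input before m6A-IP and shCTL before shA5. NEFL, a neurofilament subunit, led them with 179, 555, 83 and 308 counts, whereas the kidney factor PAX2 had 0, 1, 0 and 0. VIM (4, 8, 2 and 8) and NEFM (3, 8, 2 and 4) also had few counts. KRT8, at 21.4, 21.3, 20.6 and 37.2 CPM, was higher in the m6A-IP of shA5, unlike the sum. Of 8 colorectal markers, for the HCT116 line also used in the study, 4 were listed, summing to 171, 377, 173 and 363 CPM. Nearly all of it was the intestinal factor CDX2 (376, 1488, 223 and 1143 counts), while EPCAM, an epithelial adhesion protein, had 3, 0, 2 and 0. Blood markers were not listed (0 of 3), and of 4 fibroblast markers 2 were listed, summing to 179, 147, 114 and 78.8 CPM, nearly all COL1A1, with DCN not listed. The summed HEK293T and fibroblast markers were lower in the shA5 input than in the shCTL input, and their part in the results below was not tested.

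Which mitochondrial mRNAs were counted followed how their 3′ ends are annotated. The last 18 bases of all 13 are shown because some mitochondrial reading frames end in T or TA and gain the rest of their stop codon only when a poly(A) tail is added. Sequences are 5′ to 3′ from hg38 with the Gencode v44 annotation, with the bases of the last codon in capitals. The genes of complex I lie at chrM:3307-4262 (MT-ND1), chrM:4470-5511 (MT-ND2), chrM:10059-10404 (MT-ND3), chrM:10470-10766 (MT-ND4L), chrM:10760-12137 (MT-ND4), chrM:12337-14148 (MT-ND5) and, on the minus strand, chrM:14149-14673 (MT-ND6). The others lie at chrM:14747-15887 (MT-CYB, complex III), chrM:5904-7445 (MT-CO1), chrM:7586-8269 (MT-CO2), chrM:9207-9990 (MT-CO3, all complex IV), chrM:8366-8572 (MT-ATP8) and chrM:8527-9207 (MT-ATP6, both complex V), each on the plus strand as 1 exon without an annotated UTR.
MT-ND1: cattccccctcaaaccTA
MT-ND2: ttatactaataatcttaT
MT-ND3: gattagactgaaccgaaT
MT-ND4: ttaccgggttttcctctT
MT-CO3: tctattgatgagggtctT
MT-CYB: aaatactcaaatgggccT
MT-ND4L: aacctactccaatgcTAA
MT-ND5: ctactcctaatcacaTAA
MT-ND6: attgctcgggggaatAGG
MT-CO1: gtatacataaaatctAGA
MT-CO2: cccgtatttaccctaTAG
MT-ATP6: ctgcacgacaacacaTAA
MT-ATP8: ttgcccccacaatccTAG
The first 6, whose annotated length is not a multiple of 3, were not listed in any library. The other 7 end in a whole codon, and all 7 were listed. The same division ran through the whole table: of 27693 listed transcripts that are protein-coding in Gencode v44, 27667 (99.9%) had whole codons and complete ends, against 71.8% of all 89067 annotated coding transcripts. Of the 25136 annotated ones without them, 26 (0.103%) were listed. Values below therefore describe 7 of the 13 mitochondrial mRNAs, with nothing on MT-CYB, the 1 subunit of complex III that mitochondrial DNA encodes.

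The 7 listed mitochondrial mRNAs took 2.05% of the counts of the shCTL input (Wilson 95% interval 2.03 to 2.07). Of the shCTL m6A-IP they took 1.0% (0.990 to 1.01). Their share was 2.34% of the shA5 input (2.31 to 2.36) and 1.02% of the shA5 m6A-IP (1.01 to 1.03). The 102 nuclear members took 0.949% (0.937 to 0.962), 0.554% (0.547 to 0.562), 0.899% (0.883 to 0.915) and 0.540% (0.532 to 0.548) in the same order. Both groups thus made up a smaller share of each m6A-IP than of its input, and the mitochondrial share was the larger of the 2 in all 4 libraries. Among counts of members, mitochondrial mRNAs took 68.3%, 64.3%, 72.2% and 65.3%. Without molecular identifiers on the reads, the intervals cover counting error and nothing else. In bulk RNA, fewer cells with a transcript and less of it per cell cannot be told apart.

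Each gene's m6A enrichment was taken as log2 of its m6A-IP CPM over its input CPM, after 0.5 CPM had been added to both, and was computed for genes averaging at least 50 counts. This kept 5320 genes, with all 7 mitochondrial and 47 of the 102 nuclear members, and left out 55 nuclear members. Intervals of single genes are exact 95% limits from the counts without the added 0.5 CPM. The median enrichment of mitochondrial mRNAs was -0.71 in shCTL (order-statistic interval -1.85 to 0.20, n = 7) and -0.98 in shA5 (-2.01 to 0.44). The 47 nuclear members had medians of -0.90 (-1.09 to -0.54) and -0.86 (-1.27 to -0.35), beside -0.11 and -0.10 over all 5320 genes. Both groups lay below the median of all genes in both populations, and the intervals of their medians overlapped. Summed counts gave the other order in shCTL, at -1.04 (-1.06 to -1.02) for the 7 mitochondrial mRNAs and -0.78 (-0.80 to -0.75) for the 102 nuclear members. In shA5 the sums gave -1.20 (-1.22 to -1.18) and -0.74 (-0.77 to -0.70).

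Calls at 1.5-fold were made on the same genes as the medians. Of the 47 nuclear members, 30 had an m6A-IP at least 1.5-fold below input in shCTL and 29 in shA5, where 30.3% and 31.7% of all genes did. In shCTL 2 members and in shA5 1 member reached 1.5-fold above input, where 22.5% and 24.3% of all genes did. Of the 7 mitochondrial mRNAs, 4 in shCTL and 6 in shA5 were at least 1.5-fold below input, and 0 were at least 1.5-fold above it in either. Below 1.5-fold in both populations were 27 nuclear members (57.4%) and 4 mitochondrial mRNAs (57.1%), against 1400 of all genes (26.3%).

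**Figure D1:**
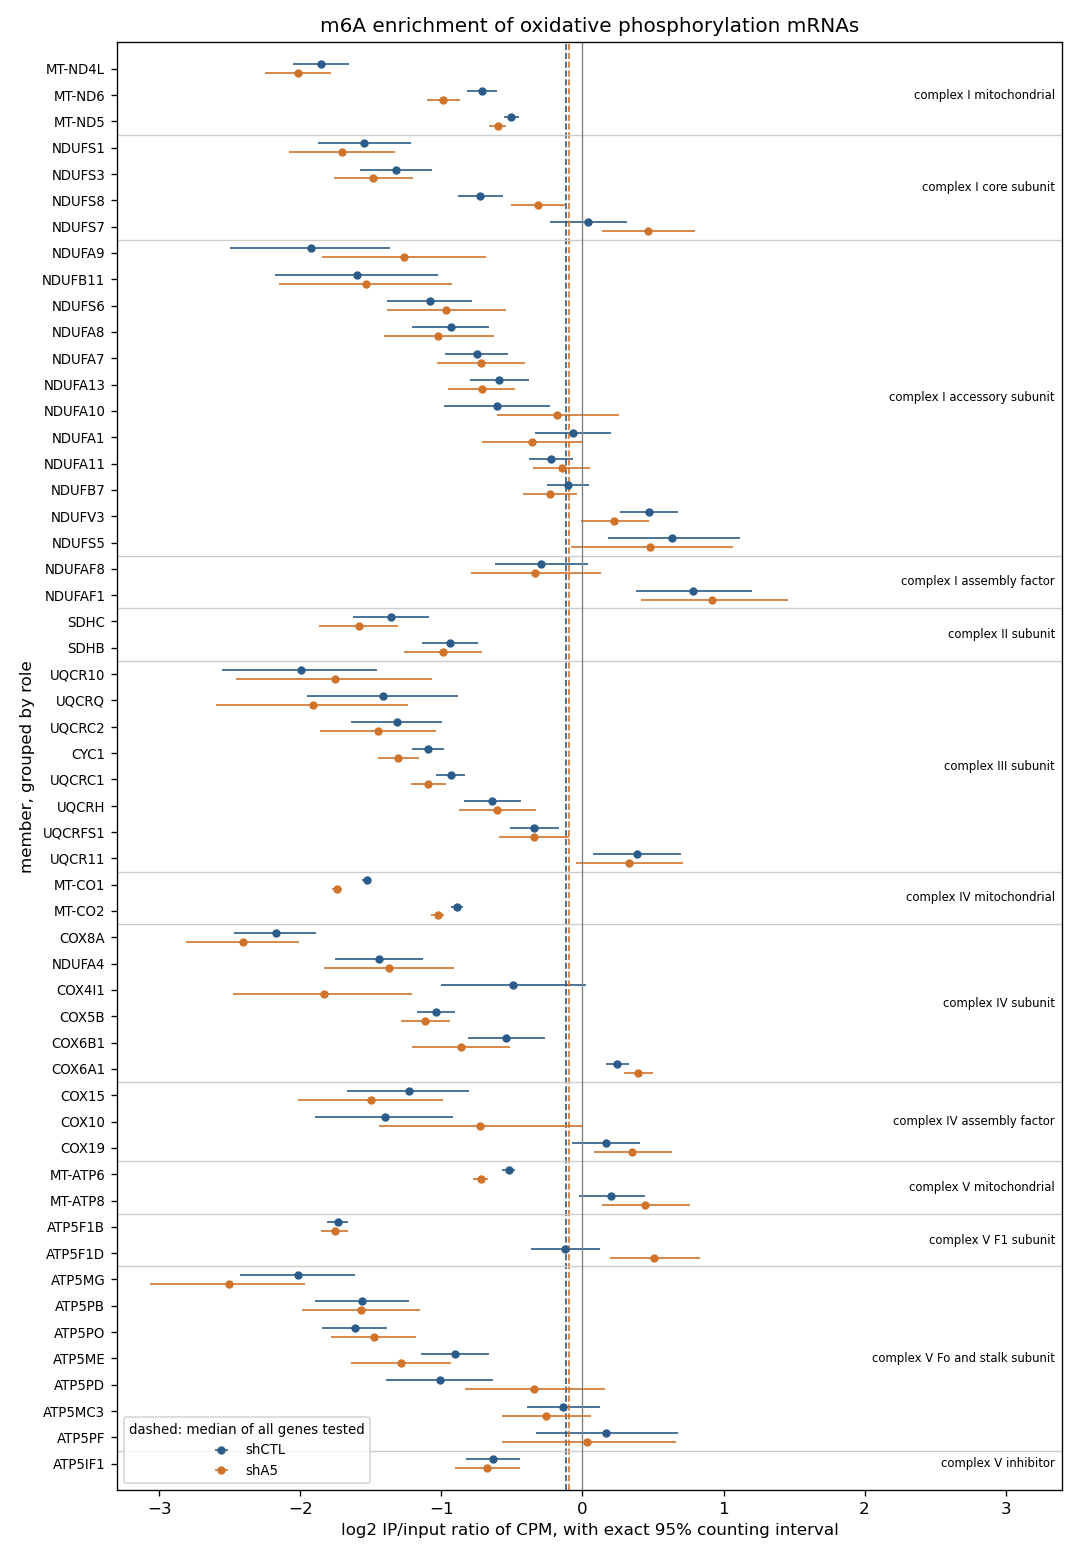
The log2 IP/input ratio (x axis) of the 54 members averaging at least 50 counts, grouped by role on the y axis, in shCTL (blue) and shA5 (orange), with exact 95% counting intervals as bars and the median of all 5320 genes tested as dashed lines. Most points lie left of both dashed lines, and subunits of complexes I, III, IV and V each include a point to the right of 0.

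Among mitochondrial mRNAs of complex I, the largest hydrophobic proton-pumping part is MT-ND5, which had 5196 counts in the input and 6458 in the m6A-IP of shCTL, and 3349 and 5296 in those of shA5. MT-ND4L, a small membrane subunit, had 627 and 306 in shCTL and 407 and 242 in shA5. MT-ND6, the 1 mRNA of the opposite strand, had 1361 and 1466 in shCTL and 1143 and 1386 in shA5. In CPM, all 3 were lower in the m6A-IP than in the input of both populations. Enrichment was -0.50 in shCTL and -0.60 in shA5 for MT-ND5, -1.85 and -2.01 for MT-ND4L, and -0.71 and -0.98 for MT-ND6. Within this complex MT-ND4L lay below MT-ND5 by more than counting error. The difference was -1.35 (-1.56 to -1.14) in shCTL and -1.41 (-1.66 to -1.17) in shA5. MT-ND4L overlaps MT-ND4, which was not listed, on the same strand. How reads there were assigned is not stated, and its part in this difference was not tested.

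Complex IV receives its catalytic core from mitochondrial DNA. MT-CO1, which holds the heme and copper centre that reduces oxygen, had 22374 counts in the input and 13656 in the m6A-IP of shCTL, and 14644 and 10518 in those of shA5. MT-CO2, which takes electrons from cytochrome c, had 9635 and 9176 in shCTL and 6542 and 7710 in shA5. Per kilobase these were the most abundant members, with 6484 CPM per kb for MT-CO1 and 6295 for MT-CO2 in the shCTL input, and 7242 and 7293 in the shA5 input. Enrichment of MT-CO1 was -1.53 in shCTL and -1.74 (-1.78 to -1.70) in shA5. That of MT-CO2 was -0.89 (-0.93 to -0.85) and -1.03 (-1.07 to -0.98), so the 2 mRNAs of one complex, of the same strand and organelle, differed by 0.64 and 0.71 on the log2 scale in the m6A-IP relative to input.

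Complex V has both of its mitochondrial subunits on a single mRNA with overlapping reading frames. MT-ATP6, the membrane subunit that forms the proton path, had 6448 counts in the input and 7908 in the m6A-IP of shCTL, and 4450 and 6473 in those of shA5. MT-ATP8, a short membrane subunit read from the 5′ part of the same mRNA, had 227 and 461 in shCTL and 114 and 373 in shA5. MT-ATP8 was the exception among the 7, with more CPM in the m6A-IP than in the input. Its enrichment was 0.20 (-0.03 to 0.44) in shCTL and 0.44 (0.14 to 0.76) in shA5, whereas that of MT-ATP6 was -0.52 (-0.57 to -0.48) and -0.72 (-0.78 to -0.67). The difference between these parts of one mRNA was 0.73 (0.49 to 0.97) in shCTL and 1.17 (0.86 to 1.49) in shA5. Per kilobase the shCTL input held 490 CPM for MT-ATP8 and 4231 for MT-ATP6. How reads in the shared stretch were assigned is not stated, and its part in these values was not tested.

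**Figure D2:**
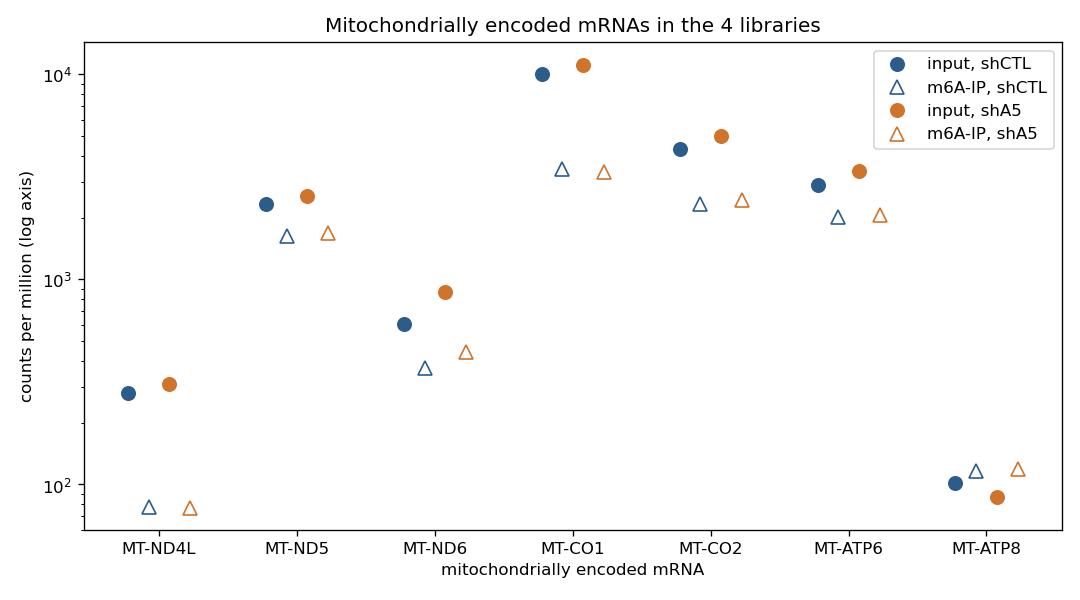
CPM (y axis, log scale) of the 7 listed mitochondrially encoded mRNAs (x axis) in the input (filled circles) and m6A-IP (open triangles) of shCTL (blue) and shA5 (orange). In 6 of them both triangles lie below both circles, and MT-ATP8 shows the opposite order.

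Sequence shared with other annotated genes limits these values. Of the stretches of 25 bases in each mitochondrial mRNA, a median of 58.3% also occur in an annotated transcript of another gene, against 6.78% for the 47 nuclear members. The closest copies are nuclear pseudogenes of mitochondrial DNA, such as MTCO1P12, which holds 68.0% of the stretches of MT-CO1, and MTATP6P1, which holds 66.2% of those of MT-ATP6. Counts of MT-CO1, MT-CO2, MT-ATP6 and MT-ATP8, each with at least 58.3% of stretches shared, are therefore uncertain. So are those of 5 nuclear members (NDUFA7, NDUFA13, UQCRH, COX6A1 and ATP5PO). NDUFA7, NDUFA13 and ATP5PO share most with a gene annotated over their own exons on the same strand. It holds 77.0%, 82.9% and 62.6% of their stretches. UQCRH shares most with UQCRHL (56.3%) and COX6A1 with COX6A1P2 (46.0%). MT-ND6 lies opposite the heavy-strand precursor RNA, and whether the counting used strand is not stated.

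Between the populations, input RNA of the mitochondrial mRNAs was higher in shA5 for 6 of 7. The log2 change of input was 0.16 for MT-CO1 (0.13 to 0.19), 0.21 for MT-CO2 (0.17 to 0.26), 0.24 for MT-ATP6 (0.18 to 0.29), 0.14 for MT-ND5 (0.07 to 0.20) and 0.52 for MT-ND6 (0.40 to 0.63). For MT-ND4L it was 0.15 (-0.04 to 0.33) and for MT-ATP8 -0.22 (-0.56 to 0.11), so neither was distinguishable from 0 at this depth. Summed over the 7, input RNA was 0.19 higher (0.17 to 0.21) in shA5 on the log2 scale, while the m6A-IP was 0.02 higher (0.0026 to 0.045). No mitochondrial mRNA reached 1.5-fold in input, beside 3.44% of all genes that were higher and 6.43% that were lower. The middle 50% of all genes lay between -0.25 and 0.19, and MT-ND6, MT-CO2 and MT-ATP6 lay above it.

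The change of m6A enrichment had the opposite sign to the change of input in all 7, from -0.27 (-0.43 to -0.12) for MT-ND6 to 0.24 (-0.15 to 0.64) for MT-ATP8. The median was -0.16 (-0.27 to 0.24) beside 0.0036 over all genes, and -0.10 (-0.22 to 0.32) with the trend on GC content removed. Intervals lay wholly below 0 for MT-ND5, MT-ND6, MT-CO1, MT-CO2 and MT-ATP6. In the m6A-IP alone the changes were -0.05 for MT-CO1, -0.01 for MT-ND4L, 0.02 for MT-ATP8, 0.04 for MT-ATP6 and MT-ND5, 0.07 for MT-CO2 and 0.24 (0.14 to 0.35) for MT-ND6, the last above the upper quartile of all genes, 0.18. The same input reads enter the input change and, with the opposite sign, the enrichment change, so these are not separate observations. All of the signs of input and enrichment changes were the same with edgeR TMM factors, DESeq2 size factors and totals without mitochondrial genes.

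**Figure D3:**
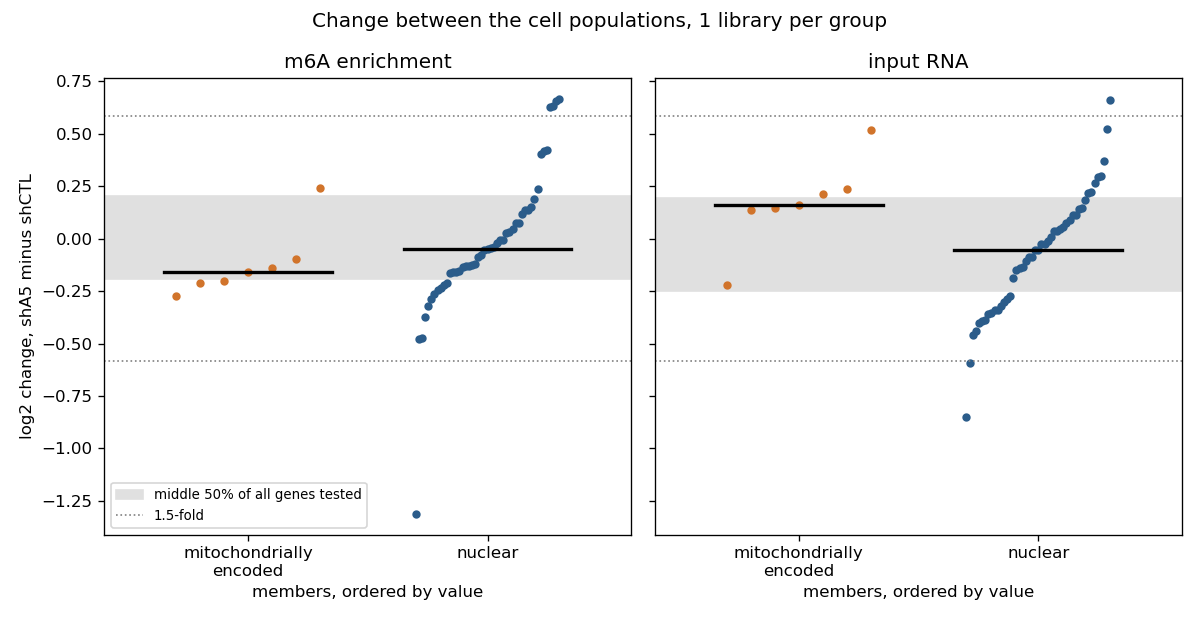
Log2 change from shCTL to shA5 (y axis) in m6A enrichment (left) and input RNA (right) for the 7 mitochondrial (orange) and 47 nuclear (blue) members, with group medians as black lines, the middle 50% of all 5320 genes in grey and 1.5-fold as dotted lines. For mitochondrial mRNAs the medians were -0.16 and 0.16, and for nuclear members both were -0.05.

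Nuclear members had a median change of -0.05 in input (-0.15 to 0.04), beside 0.16 (-0.22 to 0.52) for the 7 mitochondrial mRNAs, and the difference between the groups was not tested. In enrichment the nuclear median was -0.05 (-0.13 to 0.03). Below 0 were 27 of 47 in input and 29 of 47 in enrichment, beside 2793 and 2636 of all 5320 genes. Among the other nuclear members SDHC (0.53) and NDUFS3 (0.37) had larger input changes than most mitochondrial mRNAs. With libraries thinned to the smallest total (37 members) the medians were -0.07 (-0.24 to -0.01) in input and 0.02 (-0.10 to 0.10) in enrichment, so the sign of the enrichment median differed. Without thinning, all 5320 genes had medians of -0.02 and 0.0036. At 1.5-fold, 4 nuclear members (8.51%) had higher enrichment in shA5 and 1 (2.13%) lower, where 5.38% and 5.09% of all genes did. In input RNA 1 (2.13%) was higher and 2 (4.26%) were lower, where 3.44% and 6.43% of all genes were. Differences between these shares were not tested. The 102 nuclear members summed gave an input change of -0.08 (-0.11 to -0.05), against 0.19 for the 7 mitochondrial mRNAs. The ratio of mitochondrial to nuclear counts was 2.16 for input of shCTL and 2.60 for that of shA5, but 1.80 and 1.88 in the m6A-IPs.

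Of the core subunits of complex I, the arm that carries NADH electrons through iron-sulfur clusters, 4 of 7 had enough counts. NDUFS1, which binds several of the clusters, had 207 counts in the input and 125 in the m6A-IP of shCTL, and 141 and 104 in those of shA5. NDUFS7, which holds the cluster next to the quinone site, had 177 and 321 in shCTL and 102 and 338 in shA5. NDUFS1 stood at -1.53 and -1.69 and NDUFS3 at -1.31 and -1.48, among the lower members, whereas NDUFS7 was at 0.04 (-0.23 to 0.31) and 0.46 (0.14 to 0.80). NDUFS8, another cluster-binding subunit, had 604 and 645 counts in shCTL and 348 and 671 in shA5. Its enrichment was higher in shA5 by 0.41 (0.16 to 0.66), from -0.72 to -0.32, with m6A-IP up by 0.38 (0.22 to 0.54) and input at -0.02. Core subunits of one arm thus covered a range from below -1.5 to above 0.4.

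Accessory subunits surround this core, and 12 of 30 had enough counts. NDUFA9, near the quinone site, had 86 counts in the input and 40 in the m6A-IP of shCTL, and 52 and 52 in those of shA5, with enrichment of -1.87 and -1.24. The change of 0.63 (-0.17 to 1.49) passed 1.5-fold but did not with a pseudocount of 2 CPM (0.57). NDUFB11, of the membrane arm, stood at -1.55 in shCTL and had 72, 42, 52 and 43 counts. At the other end were NDUFS5 (54 and 148 counts in shCTL, 35 and 117 in shA5) at 0.63 (0.18 to 1.11) and 0.47 (-0.08 to 1.07), and NDUFV3 (274 and 670, 193 and 542) at 0.47 and 0.23. Among assembly factors, which act on complex I only while it is built, 2 of 8 had enough counts. NDUFAF1, a chaperone of the membrane arm, had 67 and 203 counts in shCTL and 39 and 177 in shA5, and its enrichment of 0.77 (0.38 to 1.20) and 0.91 (0.41 to 1.46) was the highest of the 47 nuclear members. NDUFAF8 lay at -0.29 and -0.33.

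Complex II, succinate dehydrogenase, is wholly nuclear, and SDHB and SDHC of its 4 subunits had enough counts. SDHB, the iron-sulfur subunit, had 441 counts in the input and 405 in the m6A-IP of shCTL, and 202 and 244 in those of shA5, with enrichment of -0.94 and -0.99. Its input and m6A-IP were both lower in shA5, by log2 changes of -0.35 (-0.60 to -0.11) and -0.40 (-0.64 to -0.17). SDHC, a membrane anchor, had 283 and 195 in shCTL and 239 and 191 in shA5, with enrichment of -1.35 and -1.58. In contrast to SDHB, its input was higher in shA5 by 0.53 (0.27 to 0.78). The catalytic SDHA had 9, 13, 5 and 3 counts and the anchor SDHD 4, 0, 2 and 0.

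Complex III passes electrons from quinol to cytochrome c, and 8 of 10 members had enough counts, 6 of them at least 1.5-fold below input in both populations, as were 26.3% of all genes. UQCR10, a small subunit beside the catalytic core, had 95 counts in the input and 42 in the m6A-IP of shCTL, and 45 and 32 in those of shA5, with enrichment of -1.95 and -1.71. UQCRQ, another small subunit, was at -1.38 and -1.86. CYC1, the cytochrome c1 heme protein, had 1446 and 1193 in shCTL and 765 and 743 in shA5, with enrichment of -1.09 (-1.21 to -0.98) and -1.30 (-1.45 to -1.16). UQCRFS1, the Rieske iron-sulfur protein, had 461 and 641 in shCTL and 206 and 389 in shA5, at -0.34 and -0.35. UQCR11, a small peripheral subunit with 123 and 283 counts in shCTL and 78 and 235 in shA5, was the exception at 0.38 (0.07 to 0.70) and 0.33 (-0.05 to 0.72). UQCRH, the hinge protein, shares 56.3% of its stretches of 25 bases with UQCRHL, so its 377, 427, 183 and 289 counts and the 6, 20, 18 and 37 of UQCRHL are uncertain.

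Nuclear subunits of complex IV regulate and stabilise the mitochondrial core, and 6 of 12 had enough counts. COX8A, a small transmembrane subunit, had 359 counts in the input and 140 in the m6A-IP of shCTL, and 172 and 78 in those of shA5. Its enrichment of -2.16 (-2.47 to -1.89) was the lowest of the nuclear members in shCTL, and in shA5 it was -2.38 (-2.81 to -2.01). COX6A1, another small subunit, had 1744 and 3646 counts in shCTL and 1029 and 3250 in shA5, and lay on the other side of 0 at 0.25 (0.16 to 0.33) and 0.40 (0.29 to 0.50). NDUFA4, first placed in complex I and now counted with complex IV, had 217 and 141 in shCTL and 84 and 78 in shA5. It stood at -1.43 and -1.35, and its input RNA was lower in shA5, with a log2 change of -0.59 (-0.98 to -0.23) that barely passed 1.5-fold and no longer did with a pseudocount of 2 CPM (-0.58). COX6B1 had 203, 246, 122 and 161 counts and its testis form COX6B2 had 6, 4, 4 and 8. COX4I1, a regulatory subunit outside the rule for named genes and chosen after its values were seen, was the 1 nuclear member with an enrichment at least 1.5-fold lower in shA5. It had 59 and 74 counts in shCTL and 55 and 37 in shA5, an enrichment change of -1.31 (-2.18 to -0.52) and an input change of 0.66 (0.11 to 1.22), and it was below the filter when libraries were thinned to the smallest total (enrichment change -0.93) or when its most counted transcript was used alone (-1.42).

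Assembly factors of complex IV were listed for 9 genes, of which 3 had enough counts. COX10, which makes heme O for the catalytic core, had 90 counts in the input and 60 in the m6A-IP of shCTL, and 29 and 42 in those of shA5. Its input change was -0.85 (-1.52 to -0.24), and its enrichment change of 0.67 (-0.21 to 1.56) passed 1.5-fold with an interval that includes 0. After thinning COX10, ATP5PD and NDUFA9 were below the filter, with enrichment changes of 0.33, 1.12 and 1.10. COX15, which turns heme O into heme A, was at -1.21 and -1.48. COX19, a copper-handling protein of the intermembrane space with 215 and 425 counts in shCTL and 147 and 451 in shA5, was at 0.16 (-0.07 to 0.41) and 0.35 (0.08 to 0.63).

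ATP synthase joins a catalytic F1 head to the membrane Fo part by stalks. ATP5F1B, the catalytic beta subunit, was the most counted nuclear member in the shCTL input, with 4063, 2149, 2093 and 1486 counts over the 4 libraries. Enrichment of this mRNA was -1.74 (-1.81 to -1.66) and -1.76 (-1.85 to -1.66), among the narrowest intervals of the nuclear members, with an enrichment change of -0.02 (-0.14 to 0.10). ATP5F1D, the delta subunit of the central stalk, had 228 and 369 in shCTL and 107 and 365 in shA5. In contrast to ATP5F1B its enrichment went from -0.12 (-0.37 to 0.12) to 0.50 (0.19 to 0.83), a change of 0.63 (0.23 to 1.04), with an m6A-IP change of 0.31 (0.10 to 0.52) and an input change of -0.32 (-0.67 to 0.02). With the trend on GC content removed the enrichment change was 0.47, below 1.5-fold. The alpha subunit gene ATP5F1A, whose product pairs with that of ATP5F1B, had 47, 40, 53 and 35 counts and did not pass the filter.

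Of the Fo and stalk subunits, 7 of 13 had enough counts. ATP5MG, of the membrane part, had 172 counts in the input and 75 in the m6A-IP of shCTL, and 97 and 41 in those of shA5, with enrichment of -1.99 (-2.43 to -1.62) and -2.46 (-3.07 to -1.96). ATP5PB, the stator stalk subunit b, was at -1.55 in both. ATP5PO, which fixes the stalk to the head, had 438 and 252 in shCTL and 200 and 172 in shA5, at -1.61 and -1.47, with an input change of -0.36 (-0.61 to -0.12). ATP5ME, a small membrane subunit with 292 and 275 in shCTL and 135 and 133 in shA5, had the largest decrease of enrichment among the 23 nuclear members averaging at least 200 counts, -0.38 (-0.82 to 0.05), which was not distinguishable from 0 at this depth. ATP5PF was at 0.16 (-0.33 to 0.68) and 0.03 (-0.57 to 0.66), not distinguishable from 0 at this depth. ATP5PD, also of the stalk and picked here after its values were seen, was with ATP5F1D, NDUFA9 and COX10 one of the 4 nuclear members called higher in enrichment, at 0.66 (0.04 to 1.30). ATP5IF1, the inhibitor that binds the F1 head when the proton gradient falls, had 418 and 475 in shCTL and 258 and 388 in shA5, at -0.63 and -0.67.

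The ring of Fo has 3 genes for one mature subunit c, which differ in the peptide that directs import. ATP5MC3 had 205, 329, 128 and 257 counts, ATP5MC2 had 22, 15, 18 and 14, and ATP5MC1 had 4, 9, 7 and 1. ATP5MC3 enrichment was -0.13 (-0.39 to 0.12) and -0.26 (-0.57 to 0.06).

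How many nuclear members could be measured went with the number of transcripts annotated for them. The 22 with 1 coding transcript with complete ends had a median of 310.5 counts in the shCTL input, and 77.3% of them passed the filter. Those with 2 (n = 19), 3 (n = 21) and 4 or more (n = 40) had medians of 77, 50 and 28 counts, and 52.6%, 42.9% and 27.5% passed. All genes listed fell in the same order, from 66 to 25, 15 and 14 counts. ATP5F1B has 1 such transcript and ATP5F1A has 4, SDHA has 3, and the complex IV subunit COX7A2, with 2, 1, 0 and 0 counts, has 6. The methods name StringTie for gene quantification, but neither whether it wrote these transcript counts nor how shared reads were treated is stated, and the part of either in these levels was not tested. Levels of nuclear members with several transcripts are uncertain. Of the 55 members below the filter, 5 have 1 such transcript, namely NDUFS4, NDUFAF4, COX16, ATP5MGL and the read-through ATP5MF-PTCD1.

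**Figure D4:**
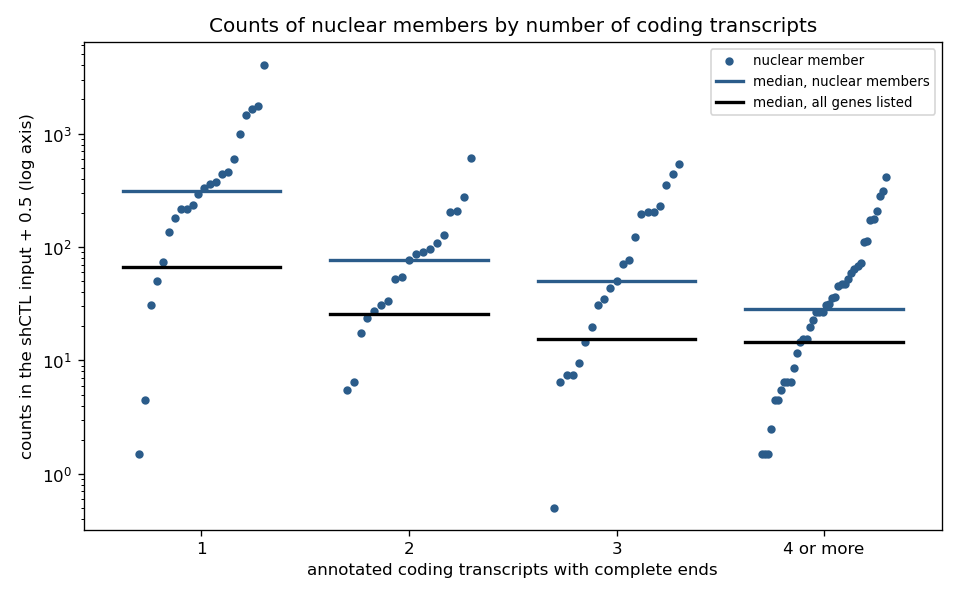
Counts in the shCTL input plus 0.5 (y axis, log scale) of the 102 nuclear members (points) by number of annotated coding transcripts with complete ends (x axis), with medians of the members (blue) and of all genes listed (black) as lines. Medians of members fall from 310.5 counts with 1 transcript to 28 with 4 or more.

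The 17 nuclear members with 1 such transcript and at least 50 mean counts had median enrichments of -0.90 and -1.01, against -0.83 and -0.78 for the 30 with more. Over all genes the medians were 0.09 and 0.12 with 1 transcript (2173 genes) and -0.23 and -0.22 with more (3116 genes). No difference between the 2 kinds of members was tested. With 1 transcript the median input change was -0.27 (-0.36 to -0.09), with 14 of 17 below 0 beside 1180 of the 2173 genes of that kind, and the median m6A-IP change was -0.34 (-0.39 to -0.22). With more transcripts these were 0.04 (-0.05 to 0.14) and 0.0029 (-0.08 to 0.17), with 13 of 30 below 0 in input beside 1603 of 3116 genes. All genes with 1 transcript had medians of -0.03 in both. Among the 17 were ATP5F1B at -0.19 (-0.26 to -0.11), CYC1 at -0.15 (-0.28 to -0.02), UQCRFS1 at -0.39 (-0.64 to -0.15), NDUFA7 at -0.39 (-0.68 to -0.11) and ATP5PO at -0.36 in input, each at or below -0.21 in the m6A-IP. Exceptions with an input change above 0 were COX19 at 0.22, UQCRC1 at 0.05 and COX6A1 at 0.01, and the split by number of transcripts was chosen after the data had been seen.

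Nuclear members have short mRNAs, with a median of 1191 nt against 3577.5 nt for all genes tested, and length was therefore held alike. Among transcripts under 1000 nt, the 19 nuclear members had median enrichments of -0.72 and -0.71 in shCTL and shA5, and the 223 other genes -0.45 and -0.55. From 1500 to under 2500 nt the 8 members had -1.12 and -1.22 and the 1071 other genes -0.0021 and 0.0074. Members below the median of other genes of their length class in both populations numbered 11 of 19 under 1000 nt, 6 of 8 from 1000 to under 1500, 7 of 8 up to 2500, 4 of 5 up to 4000 and 4 of 7 from 4000 on. Members were thus lower than others in every class by their median in both populations, with the smallest gap among the shortest in shCTL and in the longest class in shA5.

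**Figure D5:**
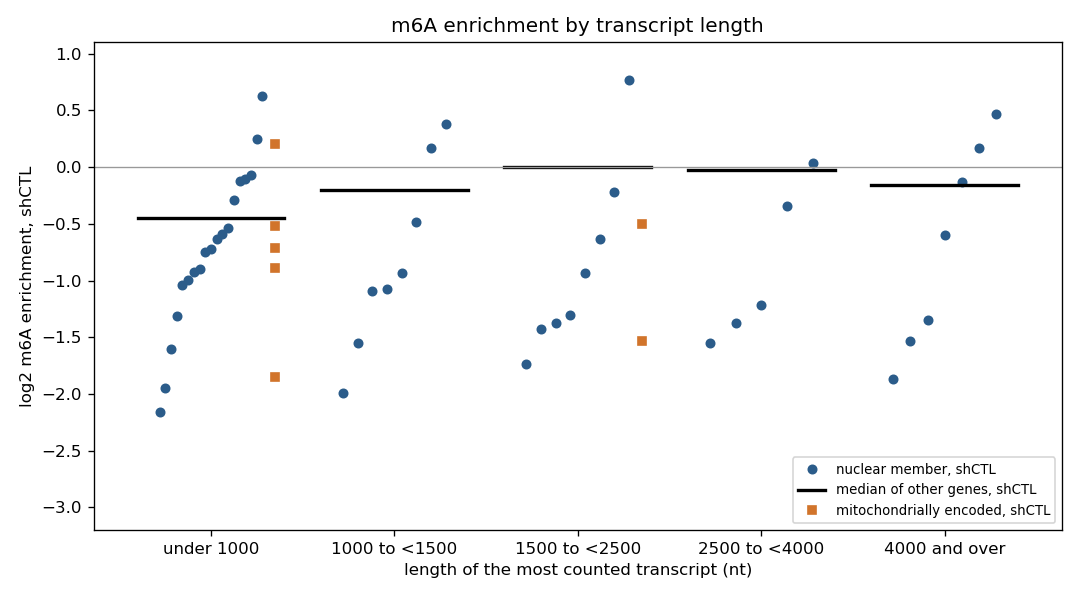
Log2 m6A enrichment in shCTL (y axis) of the 47 nuclear (blue circles) and 7 mitochondrial (orange squares) members by length of their most counted transcript (x axis, nt), with black lines at the median of the other genes of that class. In the class from 1500 to under 2500 nt, 7 of 8 nuclear members lie below the line.

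The methyltransferase acts within a short consensus of which GGACT is a common form, and transcripts were searched for it on their own strand, where the annotated length matched that of the deposited table. The letters occurred in 93.5% of the 4687 most counted transcripts so searched, in 79.1% of 43 nuclear members and in 4 of 7 mitochondrial mRNAs. These shares are not matched for length, with medians of 3577.5, 1191 and 681 nt over the genes tested. Other genes lacked GGACT in 34.8% under 1000 nt and in 0.638% from 4000 nt on. Per kilobase, the shorter GGAC had medians of 3.99 in all genes, 3.98 in nuclear members and 0.65 in mitochondrial mRNAs. All 6 mitochondrial sites are in coding sequence, at chrM:7226-7230 (MT-CO1), chrM:7928-7932 (MT-CO2), chrM:8782-8786 (MT-ATP6) and chrM:13267-13271, chrM:13417-13421 and chrM:13825-13829 (MT-ND5), all on the plus strand. They are shown with the GGACT in capitals, beside sites of ATP5F1B and ATP5F1D, which lie far apart in enrichment.
MT-CO1: ccgacgttactcGGACTaccccgatgcat
MT-CO2: accgactacggcGGACTaatcttcaactc
MT-ATP6: actaacctcctcGGACTcctgcctcactc
MT-ND5 site 1: tcaagtcaactaGGACTcataatagttac
MT-ND5 site 2: cgaaaaataggaGGACTactcaaaaccat
MT-ND5 site 3: gtcactttcctaGGACTtctaacagccct
ATP5F1B site 1: agtctccacccGGACTacgccatgttgg
ATP5F1B site 2: ccatcctgtcagGGACTatgcggcgcaaa
ATP5F1B site 3: cagtttgatgagGGACTaccaccaattct
ATP5F1B site 4: agagcacagtaaGGACTattgctatggat
ATP5F1D site 1: ctccgccgcccgGGACTtggccgcctcgt
ATP5F1D site 2: tgaaagctctggGGACTgggccagggaag
In ATP5F1B, on the minus strand of chromosome 12, site 1 is in the 5′ UTR in exon 1 (chr12:56645969-56645973) and the next 3 are in coding sequence in exon 2 (chr12:56645345-56645349 and chr12:56645245-56645249) and exon 3 (chr12:56644936-56644940). The remaining site spans the junction of exons 9 and 10. In ATP5F1D, on the plus strand of chromosome 19, site 1 is in coding sequence in exon 1 (chr19:1241881-1241885) and site 2 in the 3′ UTR in exon 4 (chr19:1244615-1244619).

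Number of sites and enrichment did not run in parallel in every member. ATP5F1B, with 5 sites, was at -1.74 in shCTL, and MT-ATP8, MT-ND6 and MT-ND4L, with 0 sites, were at 0.20, -0.71 and -1.85. NDUFAF1 and NDUFS5, the nuclear members with the highest enrichment in shCTL, and COX6A1 also had 0. In contrast, NDUFS7 had 9 sites and was at 0.04 in shCTL, while COX8A had 0 sites and was at -2.16. In shCTL the nuclear members with 0, 1, 2 to 4 and 5 or more sites had medians of -0.90, -0.86, -0.60 and -1.53 (n = 9, 12, 17 and 5), whereas other genes had -0.37, -0.22, -0.11 and -0.02. In shA5 the members had -0.99, -0.76, -0.60 and -1.69. Member medians thus rose up to the class of 2 to 4 sites in both populations and were lowest with 5 or more. Whole-transcript counts do not show which site, if any, was methylated, and absence of GGACT does not exclude other forms of the consensus.

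Genes that serve oxidative phosphorylation from outside the member list were grouped by function. Of 17 genes of mitochondrial transcription and mRNA handling with enough counts, 8 were at least 1.5-fold below input in shCTL and 9 in shA5 (30.3% and 31.7% of all genes), and 4 and 3 were above (22.5% and 24.3%). LRPPRC, which stabilises mitochondrial mRNAs, had 1142 counts in the input and 627 in the m6A-IP of shCTL, and 696 and 438 in those of shA5, at -1.68 and -1.93, and its partner SLIRP was at -0.86 and -1.14. POLRMT, the mitochondrial RNA polymerase, had 2479 and 4906 in shCTL and 1292 and 3537 in shA5, at 0.17 and 0.19. At least 1.5-fold above input in both populations were PTCD1, a leucine tRNA-binding protein, at 1.76 and 1.39, FASTKD5, an RNA-processing factor, at 1.11 and 0.84, and TRMT10C, a subunit of mitochondrial RNase P, at 0.84 and 0.61. In enrichment 0 of the 17 were higher and 2 lower in shA5, beside 5.38% and 5.09% of all genes, namely PNPT1, the mitochondrial RNA exonuclease, at -0.74 and FASTKD3 at -0.81. In input, where 3.44% of all genes were higher and 6.43% lower, 1 was higher (FASTKD3, 0.65). Lower in input were 2 (GRSF1, an RNA-granule protein, at -0.84 and MTERF2 at -0.64). FASTKD3 and MTERF2 averaged 88.75 and 73.75 counts, and no interval was computed for the genes grouped by function.

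Of 23 other assembly factors and carriers with enough counts, 5 were at least 1.5-fold below input in each population, and 4 in shCTL and 6 in shA5 were above, where 30.3% and 31.7% of all genes were below and 22.5% and 24.3% above. Of the 41 structural subunits of the member list, 27 and 26 were below and 1 and 0 above, and the difference between these groups was not tested. SDHAF1, an assembly factor of complex II, was at 1.77 and 1.60 while SDHB, the subunit it matures, was at -0.94 and -0.99. CYCS, cytochrome c itself, lay with the subunits at -1.16 and -1.48. Between populations 1 of the 23 was higher in enrichment (COA3, 0.73) and 2 lower (TTC19, -0.62, and PET100, -0.79), where 5.38% and 5.09% of all genes were. In input 0 were higher and 1 lower (OXA1L, -0.79), where 3.44% and 6.43% of all genes were. PET100 (49, 87, 32 and 44 counts) and OXA1L (51, 93, 17 and 43) lay just above the filter. Their calls rest on few counts, without an interval. Of 4 genes of mitochondrial DNA copying, 2 in shCTL (POLG and POLG2) and 1 in shA5 (POLG2) were at least 1.5-fold above input. SSBP1, a DNA-binding protein, was at -0.31 in shCTL and, at least 1.5-fold below input, at -1.12 in shA5, a change of -0.81. It had 63, 89, 28 and 30 counts, also just above the filter, and no interval was computed. Of 4 transcription factors of respiratory genes, GABPB2 and PPARGC1B were at least 1.5-fold below and HCFC1 at least 1.5-fold above input in both populations, and 0 changed by 1.5-fold between them.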

How the data were processed

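Analysis began from the table of whole-number counts of Ensembl transcripts that the authors deposited for each library. By their processing notes and methods, reads were demultiplexed with bcl2fastq 2.0, trimmed with fastp 0.23.2, aligned to hg38 with HISAT2 and sorted with SAMtools 1.9, and peaks were called with MACS2, while StringTie is named for gene quantification. Whether StringTie wrote the transcript counts, the annotation release, the use of strand and the rule for shared reads are not given in the sources used here. Of listed transcripts, 98.1% were in Gencode v44, from which sequences and positions were taken.

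Counts were summed per gene symbol and divided by the library total. Members and lists were chosen with earlier results of these data known. Enrichment, its change (shA5 minus shCTL) and the change of input used a pseudocount of 0.5 CPM, genes averaging at least 50 counts and a threshold of 1.5-fold. Intervals of single genes were Clopper-Pearson limits, or conditional odds ratios for a change of enrichment, at 95%, and order-statistic limits for medians. Shares of library totals had Wilson limits. For scale, 3 counts are 1.34 CPM in input and 0.761 in m6A-IP of shCTL, and 2.29 and 0.953 in shA5.

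Named genes were every mitochondrial member, in each role the 2 highest and 2 lowest nuclear members by mean enrichment, the 4 largest increases and decreases of enrichment and of input among nuclear members averaging at least 200 counts, alternative subunit genes where all were listed, and ALKBH5. Genes named from the pathway lists and others outside this rule were picked after their values were seen.

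Alternatives were edgeR TMM factors, DESeq2 size factors, totals without mitochondrial genes, pseudocounts of 0.1 and 2 CPM, filters at 10, 50 and 200 counts or none, a 2-fold threshold, the most counted transcript of each gene, libraries thinned to the smallest total, a lowess trend on GC content removed (span 0.3), and structural subunits only. Nuclear members with 1 complete coding transcript and mitochondrial mRNAs of at least 500 nt were added after the data had been seen. The steps were tested on simulated counts. Software was DESeq2 1.42.0 and edgeR 4.0.16 under R 4.3.3, with pandas 2.3.3, matplotlib 3.10.9, scipy 1.17.1, statsmodels 0.14.6 and numpy 2.4.6 under Python 3.11.15. Peak calls and coverage were not analysed here.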

Additional observations from a re-analysis of the deposited data

How the results depend on the processing

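No paired analysis was possible because 1 library stands for each group, and for this reason no replicate could be left out. Results recomputed were the medians of mitochondrial and nuclear members and the counts of nuclear members past 1.5-fold. Medians were taken as unmoved inside the 95% interval of the main value, and counts within 1.5-fold of the main count. By this measure TMM factors, DESeq2 size factors, totals without mitochondrial genes and a pseudocount of 0.1 CPM moved no result. Removal of the GC trend, applied to the changes alone, stayed within these limits, with medians of -0.10 (mitochondrial) and -0.04 (nuclear) for enrichment change and 0.12 and -0.03 for input change, and 3 nuclear members higher in enrichment, without ATP5F1D. The 5 mitochondrial mRNAs of at least 500 nt, a choice added after the data had been seen, had median changes of -0.20 in enrichment (lowest to highest -0.27 to -0.10) and 0.21 in input (0.14 to 0.52). This cut removed MT-ATP8, the only one of the 7 with changes of the other sign (0.24 in enrichment, -0.22 in input). That these ranges exclude 0 therefore follows from the cut, and no conclusion is drawn from it.

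With a pseudocount of 2 CPM, 1 nuclear member was lower in input, without NDUFA4 (all genes 5.85%). Shares of all genes called under the same setting stand in brackets, in the order of the counts. At 10 counts (81 members), 4 in shCTL and 4 in shA5 were above input, 54 and 53 below it, 16 higher and 9 lower in enrichment, and 8 higher and 11 lower in input (18.9%, 21.3%, 35.8%, 37.8%, 12.6%, 13%, 9.32% and 12.5%). At 200 counts (23 members), 0 and 0 were above, 14 and 13 below, 1 higher and 0 lower in enrichment, and 0 higher and 0 lower in input (29.1%, 31.0%, 21.7%, 23.7%, 1.65%, 1.08%, 1.08% and 3.33%). Without a filter (97 members with counts in both shCTL libraries, 96 in both of shA5, 95 in all and 98 in both inputs), 4 and 6 were above, 62 and 60 below, 20 higher and 12 lower in enrichment, and 11 higher and 15 lower in input (18.1%, 19.6%, 37.5%, 40.7%, 16.0%, 17.1%, 13.9% and 14.5%).

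A 2-fold threshold left 0 and 0 above, 19 below in shCTL, 0 higher in enrichment, and 0 higher and 0 lower in input (10.1%, 12%, 16.9%, 0.846%, 0.470% and 1.15%). With the most counted transcript, 0 were higher in input (3.46%). After thinning (37 members), 1 was above in shCTL, 2 were higher and 2 lower in enrichment, and 0 higher and 1 lower in input (24.2%, 4.54%, 4.72%, 2.73% and 4.88%), and the nuclear medians of change were 0.02 (-0.10 to 0.10) in enrichment and -0.07 (-0.24 to -0.01) in input. Among structural subunits (41), 1 and 0 were above input and 1 was lower in input (22.5%, 24.3% and 6.43%). Nuclear members with 1 complete coding transcript (17), also added after the data had been seen, had a median input change of -0.27, with 0 and 0 above, 11 and 11 below, 0 higher and 0 lower in enrichment, and 0 higher and 1 lower in input (all genes with 1 such transcript 28.9%, 30.6%, 24.6%, 26.6%, 3.77%, 3.22%, 2.62% and 6.58%).

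Calls of change near the filter rest on few counts and differ most between settings, partly because different numbers of members were tested, and other causes were not tested. The 55 nuclear members under the filter were left out of the main medians and calls, and values given for them elsewhere rest on few counts. The 6 mitochondrial mRNAs not listed and differences between cultures cannot be described from these data. Nor can the effect of X-rays, for which no unexposed library is among the 4.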
